A study of Mus musculus with 12 samples.

Results

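The Tribbles genes Trib1, Trib2 and Trib3 encode a small family of pseudokinases, proteins with a kinase fold that act mainly as scaffolds. They were found by gene symbol as 3 rows of a table of 27179 genes, and all 3 had enough reads to enter the test, with 16175 genes in all. Expression was measured by RNA sequencing in the fat pad beside the epididymis (epididymal white adipose tissue, eWAT) of male C57BL/6J mice on chow. In the epinephrine group 6 mice were given sodium epinephrine in saline into the peritoneum at 0.5 mg/kg, and in the vehicle group 6 mice were given saline alone. Tissue was taken 1 h later, and the labels call the 6 libraries of a group biological replicates. The listed ages were 18 to 23 weeks for epinephrine mice and 12 to 17 weeks for vehicle mice, 1 week further with each sample, so no listed age occurs in both groups. Libraries held 24821601 to 31731730 assigned reads with epinephrine and 25442480 to 34405433 with vehicle. Epididymal transcripts entered the libraries unevenly: 12 epididymis markers took 0.00303% to 3.43% of reads in epinephrine libraries and 0.000988% to 4.50% in vehicle libraries. The share was highest in epinephrine 1, epinephrine 2 and vehicle 2, and values without these 3 libraries are given where a result rests on them.

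Tribbles proteins bind substrates with the pseudokinase domain and carry a tail that recruits the ubiquitin ligase COP1, so that a bound protein such as the adipocyte transcription factor C/EBPalpha is marked for degradation. They also bind MAP kinase kinases and, for TRIB3, the insulin-signalling kinase AKT. TRIB1 is known from work on blood lipids and on adipose tissue macrophages, TRIB2 from leukaemia and as a restraint on fat cell differentiation, and TRIB3 as a target of the stress factors ATF4 and CHOP that, with COP1, marks acetyl-CoA carboxylase for degradation in fat. The series title ties beta-adrenergic lipolysis, the release of fatty acids from fat cells, to anxiety through GDF15, and the comparison asks which transcripts differ in eWAT shortly after the adrenal hormone.

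All 3 are protein-coding genes with RefSeq positions on GRCm38, the build that mm10 names. Trib1 lies on the plus strand at chr15:59648654-59657099, Trib2 on the minus strand at chr12:15791725-15816962, and Trib3 on the minus strand at chr2:152337425-152344060. The GENCODE annotation places no other gene over Trib1 or Trib3. It places 1 microRNA gene, Mir6387, inside Trib2 on the same strand, whose reads could be shared with Trib2. The GENCODE transcripts with the longest 3′ untranslated region (3′ UTR) differed in sequence content. The Trib2 3′ UTR of 1881 bases held 6 copies of ATTTA, the pentamer found in AU-rich elements of short-lived mRNAs, a count reached by 16.9% of 14445 tested genes with a 3′ UTR. The 3′ UTRs of Trib1, 2398 bases, and Trib3, 785 bases, held 0 copies, against a median of 1 copy over those genes.

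Windows around the annotated start site, 250 bases before to 50 bases after it, were matched by symbol for 2 of the 3 members, Trib2 and Trib3, and no window of Trib1 was used here. Both are shown, that of Trib3 because TRIB3 is a textbook ATF4 and CHOP target and that of Trib2 beside it. They come from RefSeq on GRCm38.p6, are written 5′ to 3′ on the gene's own strand, and capitals mark every match to one of 5 searched motifs on either strand.
Trib2, chr12:15816736-15817035: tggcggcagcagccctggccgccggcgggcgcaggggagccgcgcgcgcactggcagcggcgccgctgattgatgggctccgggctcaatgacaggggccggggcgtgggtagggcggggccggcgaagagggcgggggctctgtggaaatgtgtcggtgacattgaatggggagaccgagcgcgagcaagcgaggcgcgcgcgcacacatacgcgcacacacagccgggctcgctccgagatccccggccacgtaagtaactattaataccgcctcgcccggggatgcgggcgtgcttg
Trib3, chr2:152344011-152344310: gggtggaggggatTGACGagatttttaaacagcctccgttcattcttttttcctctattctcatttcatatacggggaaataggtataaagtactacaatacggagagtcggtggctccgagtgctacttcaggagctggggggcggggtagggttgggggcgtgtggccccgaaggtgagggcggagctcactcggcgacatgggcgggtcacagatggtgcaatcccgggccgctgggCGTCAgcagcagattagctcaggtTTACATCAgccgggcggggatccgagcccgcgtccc
The motifs were the CREB full site TGACGTCA and short site TGACG (the full site holds the short one), the AP-1 site TGANTCA, the core of the composite C/EBP-ATF site bound by ATF4 and CHOP, TGATGNAA, and the FOXO site TGTTTAC. The Trib3 window held a short CREB site starting 237 bases before the start, another starting 10 bases before it on the opposite strand, and 1 composite core, TTACATCA on the gene's strand, at bases 15 to 22 after the start. Of 32851 windows of the same length, 20.8% held a short CREB site and 3.97% a composite core. The Trib2 window held no match to the 5 motifs. The full site was present in 1.79% of windows, the AP-1 site in 7.81% and the FOXO site in 3.65%. By base composition the Trib2 window was 71.0% G and C with 40 CG pairs, and the Trib3 window 58.3% with 21.

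Trib1 and Trib2 moved in opposite directions 1 h after epinephrine. Trib1 rose 3.81-fold and Trib2 fell to 0.511 of its vehicle level, while Trib3 was lower on average but did not pass the test. In bulk tissue, fewer cells of a type and less RNA per cell cannot be told apart. By edgeR's test with an adjusted p threshold of 0.05 over all genes, 2.65% of tested genes were called higher and 3.58% lower, and 6.23% in either direction; of the 3 members, 1 was called each way. Groups that did not overlap were found for 2.04% of genes in the higher and 2.74% in the lower direction.

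Trib1, the member known to bind MEK1 and to hold C/EBPalpha for COP1, was at 129 CPM (reads of the gene relative to library size, with TMM factors) in the lowest epinephrine library, 187 at the median and 238 in the highest, against 23.4, 54.0 and 70.5 CPM in vehicle libraries. Every epinephrine library lay above every vehicle library. The group means were 187 ± 38.5 CPM with epinephrine and 49.1 ± 16.6 CPM with vehicle (SD, n = 6 each). On the log2 scale the fold change was 1.93 with a standard error of 0.25 (adjusted p = 0.000824 by edgeR). Among the 428 genes called higher, 72 had a larger fold change; 199 of them, 1.23% of tested genes, were at least 2-fold higher. Between libraries of the same numbers, Trib1 was higher by a log2 fold change of 1.57 in numbers 1 to 3 (edgeR adjusted p = 0.248) and of 2.28 in numbers 4 to 6 (edgeR adjusted p = 0.0168). With the listed age as a covariate the estimate was 1.45 and the edgeR adjusted p 0.0523, so the call ended. Within a group the listed age rises with the replicate number and no age occurs in both groups, so this fit extends a trend along the numbers, and whether the listed ages are the true ages was not tested. The mean log2 CPM of the epididymis markers fell along the same numbers, from 10.9 in epinephrine 1 to 0.62 in epinephrine 6. In vehicle libraries it was 6.03 in number 1, 10.7 in number 2 and -1.09 in number 6. Whether it has a part in that trend was not tested.

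Trib2, the member studied as an inhibitor of adipocyte differentiation, showed the reverse. Its lowest, median and highest values were 8.04, 9.67 and 14.4 CPM in epinephrine libraries, against 18.7, 19.5 and 24.3 CPM in vehicle libraries. The groups did not overlap, with epinephrine 5 the highest treated library and vehicle 3 the lowest control. The means were 10.5 ± 2.38 CPM with epinephrine and 20.6 ± 2.33 CPM with vehicle (SD, n = 6 each), a log2 fold change of -0.97 with a standard error of 0.14 (adjusted p = 0.00205 by edgeR). Vehicle libraries were close to each other, with an SD of 11.3% of the mean, against 22.7% in epinephrine libraries. Of the 579 genes called lower, 90 had a larger fold change; 83 of them, 0.513% of tested genes, were at least 2-fold lower, and Trib2 was just short of that. The log2 fold change was -0.92 in numbers 1 to 3 (edgeR adjusted p = 0.234) and -1.01 in numbers 4 to 6 (edgeR adjusted p = 0.0475). In numbers 1 to 3 edgeR called 0 of 16709 genes, with 1356 at an unadjusted p under 0.05. With the listed age as a covariate Trib2 was at -0.96 and stayed called (edgeR adjusted p = 0.0364).

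Trib3, which inhibits AKT in liver and is induced by nutrient and endoplasmic reticulum stress, did not pass the test. It was at 3.01 CPM in the lowest epinephrine library, 4.43 at the median and 5.84 in the highest, against 4.23, 6.68 and 9.95 CPM in vehicle libraries. The groups overlapped through vehicle 2 and vehicle 6, the lowest control libraries, and 3 of 6 epinephrine libraries were below every control. The means were 4.57 ± 1.11 CPM with epinephrine and 6.77 ± 1.89 CPM with vehicle (SD, n = 6 each), a log2 fold change of -0.57 with a standard error of 0.22 (adjusted p = 0.181 by edgeR). In each group Trib3 was lowest in the library with the most epididymal transcripts, epinephrine 1 and vehicle 2. With the mean level of the epididymis markers as a covariate the log2 fold change was -0.56 (edgeR adjusted p = 0.116), and without the 3 libraries richest in epididymal transcripts -0.52 (edgeR adjusted p = 0.106). The same 2 fits gave 1.93 and 2.21 for Trib1, and -0.96 in the first for Trib2, and both genes passed the threshold in each. Limma-voom with sample weights called Trib3 lower (log2 fold change -0.63, limma adjusted p = 0.0368), while without vehicle 4, its highest library, the edgeR estimate was -0.41 (edgeR adjusted p = 0.397).

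**Figure D1:**
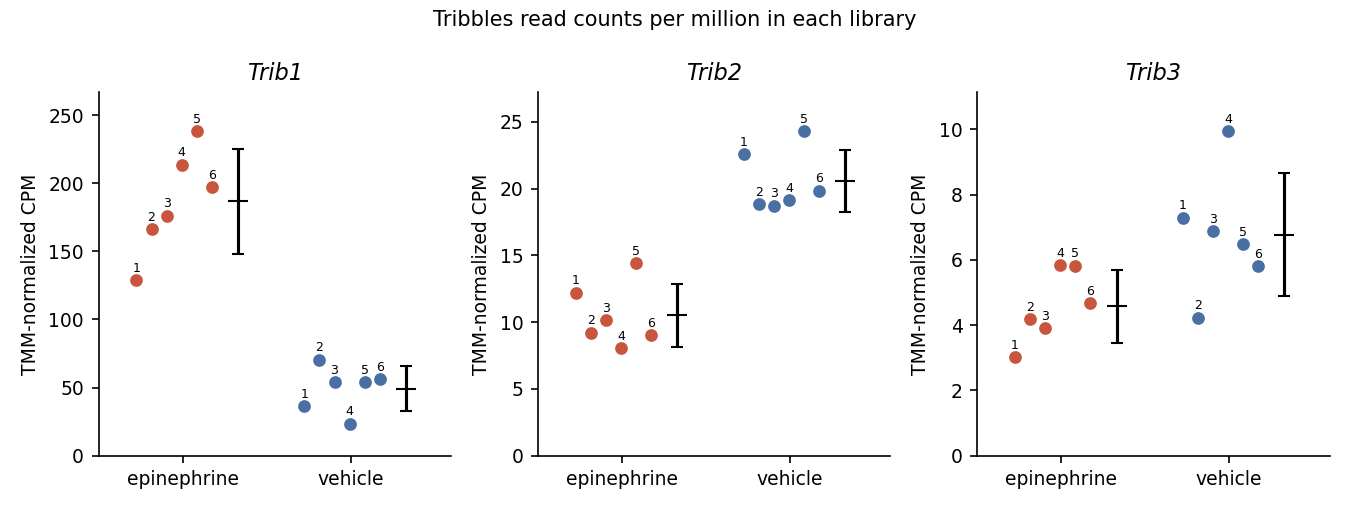
TMM-normalized CPM of Trib1, Trib2 and Trib3 in each library (points, numbered by replicate) of the epinephrine and vehicle groups, with the mean and SD beside them in black; each vertical axis starts at 0 and has its own range. Trib1 runs from 129 to 238 CPM with epinephrine, above all vehicle libraries, Trib2 from 8.04 to 14.4 CPM, below all vehicle libraries, and the Trib3 groups overlap.

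Compared per gene length, as RPKM, Trib1 was first of the family in all 12 libraries. It averaged 46.4 ± 9.56 RPKM with epinephrine and 12.2 ± 4.11 RPKM with vehicle (SD, n = 6 each), which placed it above 89.6% of tested genes in the epinephrine group and above 63.9% in the vehicle group. Trib2 averaged 2.50 ± 0.568 RPKM with epinephrine and 4.90 ± 0.555 RPKM with vehicle, and Trib3 averaged 2.23 ± 0.543 RPKM with epinephrine and 3.30 ± 0.922 RPKM with vehicle (SD, n = 6 each). The gap between Trib2 and Trib3 with epinephrine was smaller than either SD, and Trib3 stood above Trib2 in 2 of the 6 epinephrine libraries and in 1 of the 6 vehicle libraries. In vehicle libraries the mean gap was larger than both SDs. The summed level of the 3 genes was 51.1 ± 10.2 RPKM with epinephrine and 20.4 ± 3.22 RPKM with vehicle (SD, n = 6 each).

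The make-up of the family's RNA shifted with it. Trib1 took 90.6% ± 1.40 of the summed RPKM with epinephrine and 58.2% ± 12.2 with vehicle, Trib2 took 5.07% ± 1.60 with epinephrine and 24.6% ± 4.74 with vehicle, and Trib3 4.33% ± 0.346 with epinephrine and 17.2% ± 8.04 with vehicle (SD, n = 6 each). The Trib1 share ranged from 88.0% to 91.8% among epinephrine libraries and from 38.2% to 72.8% among vehicle libraries. Vehicle 4 had the lowest Trib1 share and the highest Trib3 share, 31.9%.

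**Figure D2:**
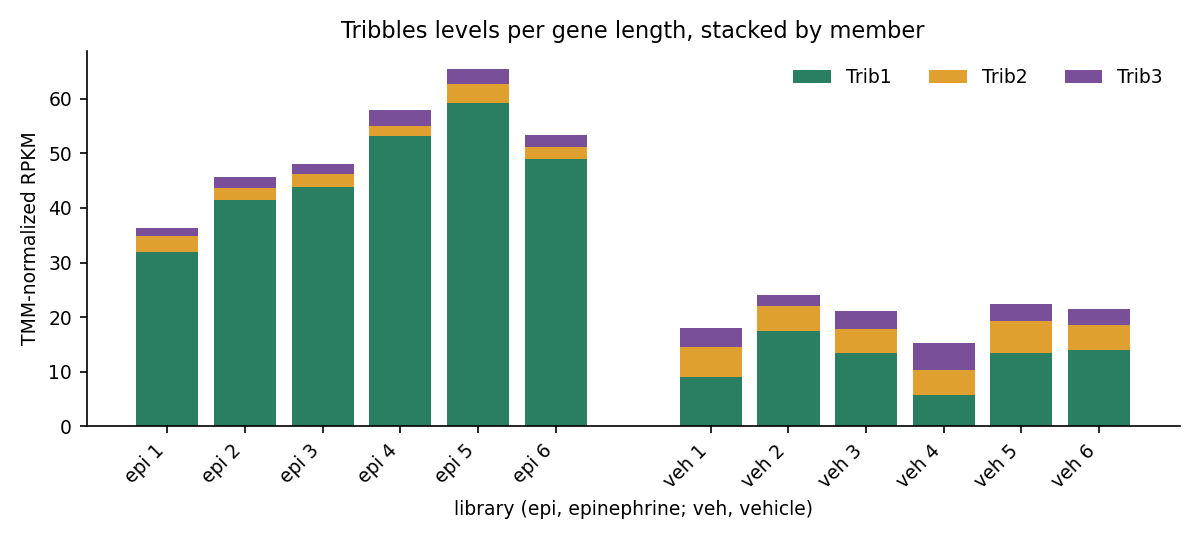
TMM-normalized RPKM (CPM per kilobase of gene length) of the 3 Tribbles genes in each library, stacked, with epinephrine (epi) libraries on the left and vehicle (veh) libraries on the right. Trib1 makes up 88.0% to 91.8% of each epinephrine bar and 38.2% to 72.8% of each vehicle bar.

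Ratios of 2 members within a library do not depend on the scaling between libraries, so they show whether members changed unequally. The log2 ratio of Trib1 to Trib2, per length, was 4.21 ± 0.45 with epinephrine and 1.24 ± 0.59 with vehicle (SD, n = 6 each), a difference of 2.97 (p = 0.00216 by an exact two-sided permutation test, the smallest the design allows, and 0.00324 adjusted over 3 pairs), higher in 6 of 6 epinephrine libraries than in any vehicle library. That of Trib1 to Trib3 was 4.38 ± 0.10 with epinephrine and 1.84 ± 0.95 with vehicle (SD, n = 6 each), a difference of 2.54 (p = 0.00216 by the same exact test, 0.00324 adjusted), again with no overlap. For both ratios the full separation, and with it the p, was already fixed by the levels given above, so neither adds support. Trib1 was higher and Trib2 lower there, each without overlap of the groups. For Trib3, the smallest ratio the epinephrine ranges allow, 129 over 5.84 CPM, exceeds the largest the vehicle ranges allow, 70.5 over 4.23 CPM. The Trib1 to Trib3 ratio ranged from 4.21 to 4.51 among epinephrine libraries and from 0.26 to 3.08 among vehicle libraries, so it was far more uniform among treated mice; the difference in spread was not tested. Trib2 to Trib3 gave 0.17 ± 0.51 with epinephrine and 0.60 ± 0.42 with vehicle (SD, n = 6 each), a difference of -0.44 that did not pass (p = 0.136 by the exact test, also adjusted). Without epinephrine 1 it was -0.60 (exact permutation test, adjusted p = 0.0368). Within numbers 1 to 3 the differences for Trib1 to Trib2 and Trib1 to Trib3 were 2.52 and 2.28, and within numbers 4 to 6 they were 3.42 and 2.79, where 3 against 3 libraries allow no p below 0.1.

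**Figure D3:**
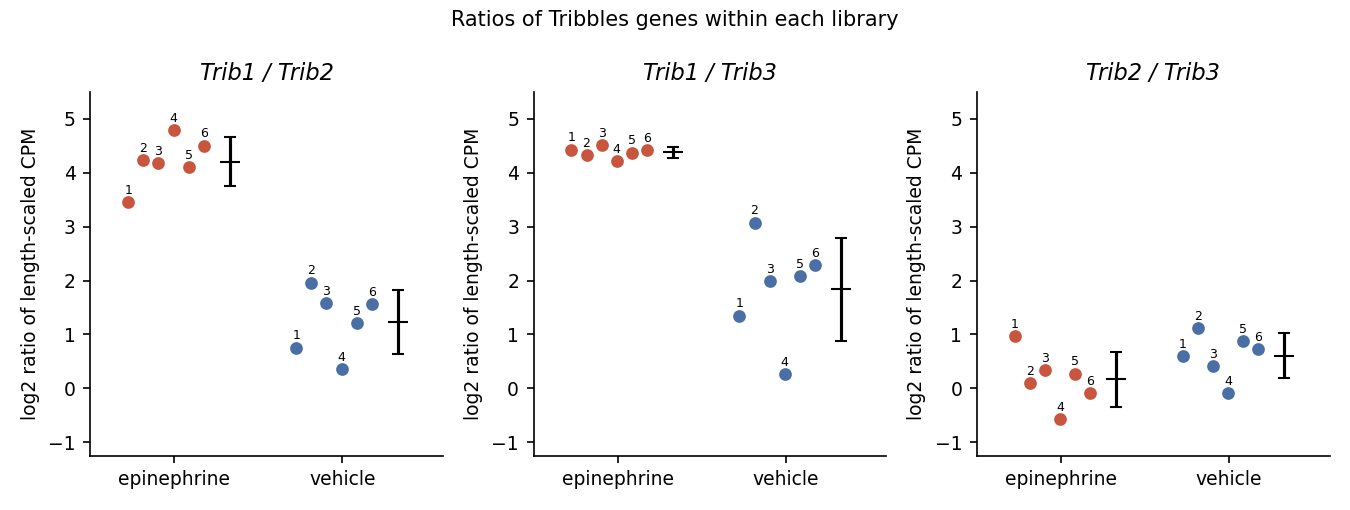
Log2 ratio of length-scaled CPM between 2 Tribbles genes within each library (points, numbered by replicate) for epinephrine and vehicle, with mean and SD in black. The 6 epinephrine libraries lie between 4.21 and 4.51 for Trib1 over Trib3, while vehicle libraries spread from 0.26 to 3.08.

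The genes through which Tribbles proteins act were followed in 5 lists of 45 genes, all of them tested. Of these, 8 were higher and 0 lower by edgeR over all genes, with 11 higher and 1 lower at an unadjusted p under 0.05. DESeq2 called 9 higher and 0 lower, and limma-voom 10 higher and 1 lower. The median log2 fold change of all tested genes was close to zero (-0.00059), and at an adjusted p of 0.05 the background was 2.65% higher and 3.58% lower, as above. In the ligase and kinase lists edgeR called none; DESeq2 and limma-voom each called 1 ligase gene higher, and limma-voom 1 kinase gene lower.

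The ligase list holds Stk40, a pseudokinase gene related to Tribbles, and the COP1, DET1, DDB1, DDA1, CUL4 and RBX1 genes of the ubiquitin ligase. Its 8 genes had log2 fold changes from -0.13 to 0.23 and a median of -0.01. Cop1, the ligase subunit that reads the Tribbles tail, was at 55.3 ± 4.07 CPM with epinephrine and 50.5 ± 2.17 CPM with vehicle (SD, n = 6 each; edgeR adjusted p = 0.269). Stk40 was at 113 ± 13.0 CPM with epinephrine and 96.9 ± 15.5 CPM with vehicle (SD, n = 6 each; edgeR adjusted p = 0.373). Dda1, a small adaptor of the complex, was nearest to the threshold, with a log2 fold change of 0.23 (edgeR adjusted p = 0.0779).

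Of 7 genes on a list of Tribbles degradation targets and related C/EBP genes, 1 was higher and 0 lower. Cebpb, a C/EBP factor of early adipogenesis and of acute responses, rose 2.97-fold, to 263 ± 62.8 CPM with epinephrine, against 88.5 ± 32.9 CPM with vehicle (SD, n = 6 each), without overlap. Its log2 fold change was 1.57 with a standard error of 0.26 (adjusted p = 0.00473 by edgeR). With the listed age as a covariate its estimate was 0.35 (edgeR adjusted p = 0.441). Cebpa, the classical TRIB1 and TRIB2 substrate, was at 895 ± 293 CPM with epinephrine and 919 ± 326 CPM with vehicle (SD, n = 6 each; edgeR adjusted p = 0.982). The acetyl-CoA carboxylase genes Acaca and Acacb, which make malonyl-CoA for fatty acid synthesis, had log2 fold changes of 0.05 and -0.17, and Mlxipl, the gene of the lipogenic factor ChREBP, -0.10. None of these 4 passed.

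The 9 genes of the kinases that Tribbles proteins bind or act on, the MAP kinase kinase, ERK and AKT genes, had log2 fold changes from -0.12 to 0.09 and a median of 0.02. Map2k1, which encodes the TRIB1 partner MEK1, was at 65.1 ± 2.92 CPM with epinephrine and 64.1 ± 2.39 CPM with vehicle (SD, n = 6 each; edgeR adjusted p = 0.901). Akt2, the main AKT gene of insulin action in fat, was at 292 ± 76.9 CPM with epinephrine and 278 ± 75.3 CPM with vehicle (SD, n = 6 each; edgeR adjusted p = 0.947). Of 7 FOXO and insulin receptor substrate genes, 1 was higher and 0 lower: Irs2, an adaptor of the insulin receptor, stood at 301 ± 80.9 CPM with epinephrine and 76.5 ± 17.6 CPM with vehicle (SD, n = 6 each; edgeR adjusted p = 0.000345). The log2 fold change of Irs2 was 1.98, and 1.31 with the listed age as a covariate (edgeR adjusted p = 0.0363). Irs1 had a log2 fold change of 0.53 (edgeR adjusted p = 0.23). That of Foxo3, the factor that TRIB2 restrains in melanoma cells, was 0.21 (edgeR adjusted p = 0.473).

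The upstream list for Trib3, the eIF2alpha kinases with ATF4, CHOP and other genes of that stress pathway, held 6 higher and 0 lower of 14. Atf4 was at 160 ± 12.6 CPM with epinephrine and 78.5 ± 10.9 CPM with vehicle, and Ddit3, the CHOP gene, at 28.5 ± 4.63 CPM with epinephrine and 17.4 ± 1.73 CPM with vehicle (SD, n = 6 each; edgeR adjusted p = 0.000108 and 0.00358). Both rose, while Trib3 had a negative log2 fold change that did not pass. Atf3 and Ppp1r15a, an early stress factor and the regulator that reverses eIF2alpha phosphorylation, had log2 fold changes of 4.38 and 2.06 (edgeR adjusted p = 0.000325 and 0.000108). Chac1, a glutathione-degrading enzyme and target of ATF4, rose to 12.9 ± 2.23 CPM with epinephrine, against 7.43 ± 1.70 CPM with vehicle (SD, n = 6 each; edgeR adjusted p = 0.0143). Sesn2, a sestrin that restrains mTORC1, was at 85.5 ± 21.6 CPM with epinephrine and 43.4 ± 10.7 CPM with vehicle (SD, n = 6 each; edgeR adjusted p = 0.0141), with groups that overlapped. With the listed age as a covariate the calls of Ddit3, Chac1 and Sesn2 ended (log2 fold change 0.44, 0.87 and 1.00; edgeR adjusted p = 0.133, 0.0826 and 0.1). The Chac1 call also ended within numbers 4 to 6 (log2 fold change 0.63, edgeR adjusted p = 0.0635). With the listed age, Atf4, Atf3 and Ppp1r15a stayed called, at log2 fold changes of 0.96, 2.67 and 1.22 (edgeR adjusted p = 0.00867, 0.0117 and 0.0108). Asns, the asparagine synthetase gene and like Trib3 a classical ATF4 target, had a log2 fold change of -0.04 (edgeR adjusted p = 0.972), and Nupr1, Ddit4 and Vldlr lay between 0.03 and 0.13. The 4 kinase genes Eif2ak1 to Eif2ak4 ranged from -0.09 to 0.003.

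**Figure D4:**
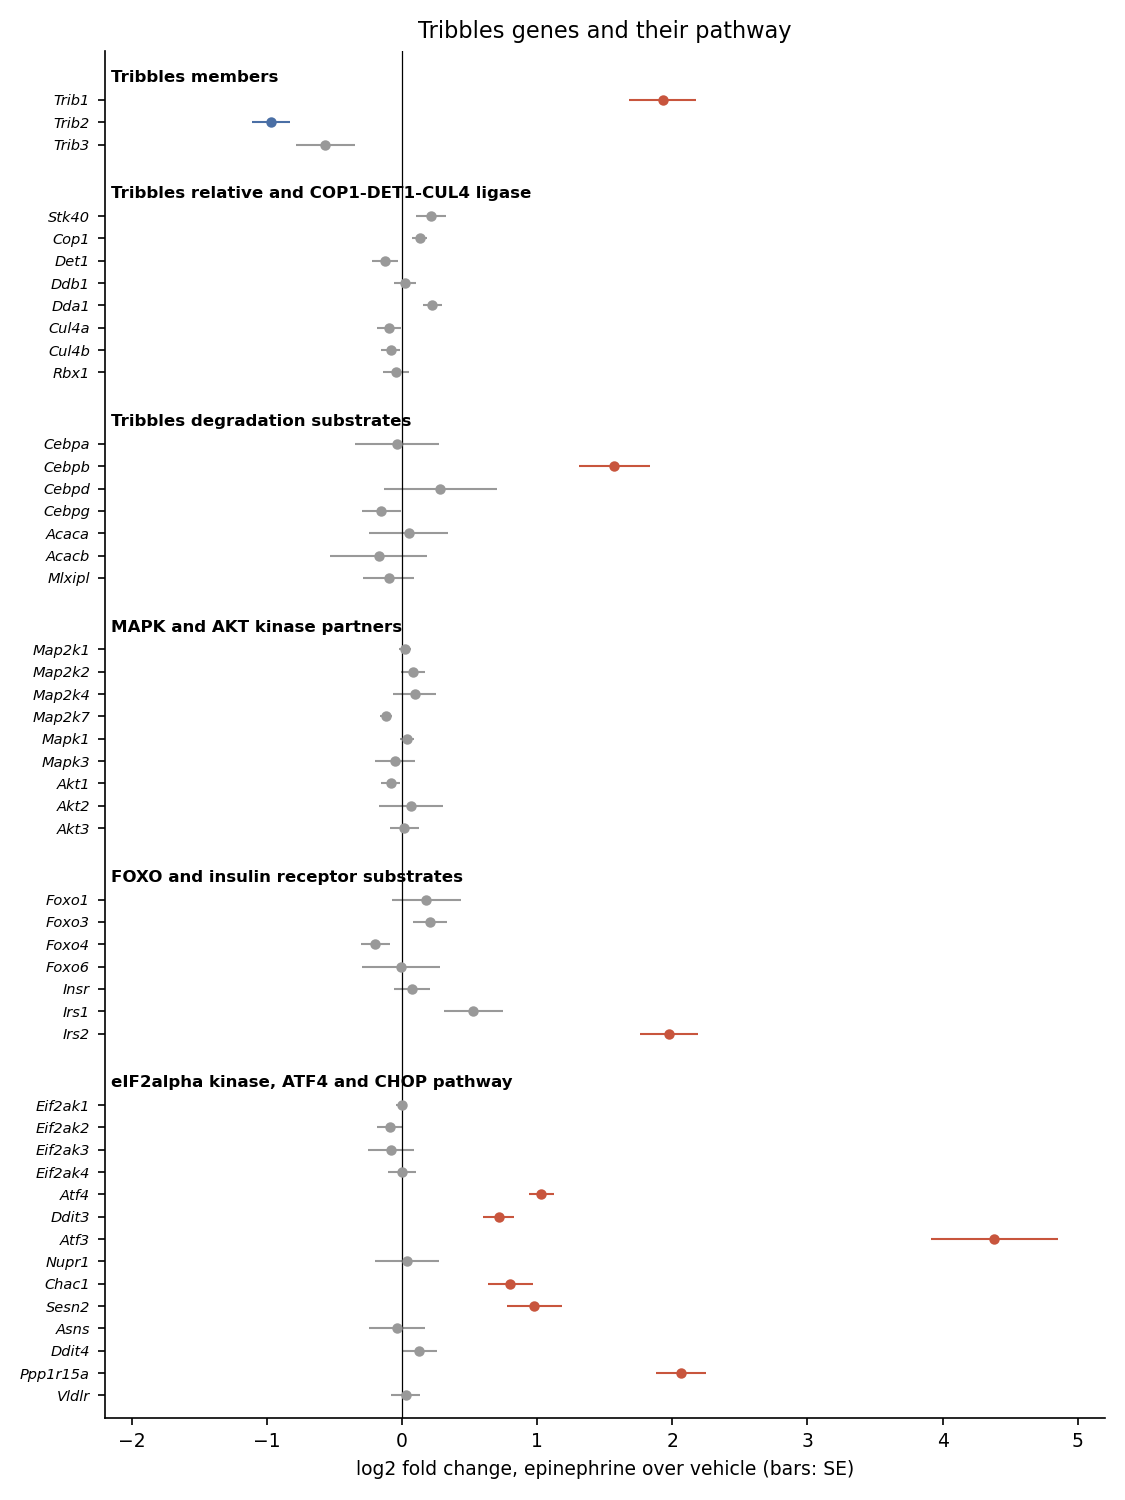
Log2 fold change of epinephrine over vehicle (points, with SE as bars) for the 3 Tribbles genes and the 45 genes of 5 lists; red points were higher and blue points lower at an edgeR adjusted p under 0.05, and grey points did not pass. The 8 red pathway genes are Cebpb, Irs2 and 6 genes of the ATF4 and CHOP list, and Trib2 is the blue point.

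Markers of the cell types of fat, and 12 epididymis markers, were compared as a check of tissue make-up. Of 62 tested markers in 9 lists, 0 were higher and 1, the natural killer cell gene Ncr1, was lower (edgeR adjusted p = 0.0452). Over all tested genes 2.65% were called higher and 3.58% lower. So few calls among 62 markers are near these shares and do not show that make-up was unchanged. Ncr1 averaged 0.596 CPM with epinephrine and 1.18 CPM with vehicle, and its groups overlapped. The other 5 genes of the T and natural killer cell list did not pass, and the list's log2 fold changes ran from -0.98 to 0.43. The epididymis markers varied widely between libraries (for Gpx5 a log2 standard error of 1.93), so 0 calls among them says little. Over the markers of all 9 lists, 2 were higher and 2 lower at an unadjusted p under 0.05. DESeq2 called 1 of them higher and 1 lower, and limma-voom 2 higher and 1 lower. List medians lay between -0.40, for neutrophil markers, and 0.22, for epididymis markers, on the log2 fold change scale. The adipocyte markers, Adipoq and Plin1 among them, were abundant in every library, summing to 11461 to 26418 CPM with epinephrine and 7681 to 25781 CPM with vehicle, so the cells that define the labelled tissue were present. Of 8 macrophage markers edgeR called 0, with 1 higher at an unadjusted p under 0.05 and 1 higher by both DESeq2 and limma-voom, and their sum ran from 658 to 1924 CPM with epinephrine and from 695 to 1492 CPM with vehicle. Cd14, a lipopolysaccharide co-receptor gene on that list, was nearest at a log2 fold change of 1.29 (edgeR adjusted p = 0.0502). None of the 7 endothelial markers, 6 fibroblast and progenitor markers or 5 tested neutrophil markers passed by any of the 3 tools. Nor did any of these at an unadjusted p under 0.05. Of 5 smooth muscle and pericyte markers, 1 was higher at an unadjusted p under 0.05 and 1 was called higher by limma-voom. Acta2 on that list had a log2 fold change of 0.51 (edgeR adjusted p = 0.166). Whether cell make-up has a part in the changes of Trib1 and Trib2 was not tested.

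Genes with the profile most like each member were ranked by Pearson's r of log2 CPM over the 12 libraries among 13089 named genes, a description that carries the group difference and has no test. For Trib1 the 3 nearest were Nfil3, a transcriptional repressor gene (r = 0.972, rho = 0.944), Coq10b, a coenzyme Q binding protein gene (r = 0.970, rho = 0.923), and Arpc3, an actin nucleation subunit gene (r = 0.970, rho = 0.888). Their log2 fold changes were 2.53, 1.76 and 0.30. For Trib2 they were Bcl2l12, Gata2, a factor of adipocyte precursors, and the zinc finger gene Zfp12, with r of 0.969, 0.954 and 0.947, rho of 0.916, 0.944 and 0.916, and log2 fold changes of -0.38, -0.62 and -0.68, all called. For Trib3 they were Ccdc102a, Snx21 and Rnf215, with r of 0.952, 0.949 and 0.947, rho of 0.979, 0.937 and 0.923, and log2 fold changes of -0.41, -0.37 and -0.22, none called.

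Ranked by deviations from the own group mean over the same 12 libraries, other genes led. The nearest to Trib1 were Psmd13, a proteasome subunit gene, Slc35d1 and Mtmr12 (r = 0.902, 0.874 and 0.860; rho = 0.860, 0.769 and 0.874). Those nearest to Trib2 were Specc1, Zw10 and, as over the raw levels, Bcl2l12 (r = 0.851, 0.844 and 0.841; rho = 0.895, 0.713 and 0.748). Those nearest to Trib3 were Pagr1a, Dapk1 and Fgf1, a fibroblast growth factor gene (r = 0.955, 0.953 and 0.946; rho = 0.986, 0.958 and 0.888); of these, edgeR called Pagr1a lower. All genes of a library share its depth and its epididymal content, both of which differed between libraries, and against the epididymal score the deviations had r of -0.23 for Trib1, -0.07 for Trib2 and -0.46 for Trib3. Among the members themselves r was -0.02 for Trib1 with Trib2, -0.29 for Trib1 with Trib3 and -0.05 for Trib2 with Trib3.

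**Figure D5:**
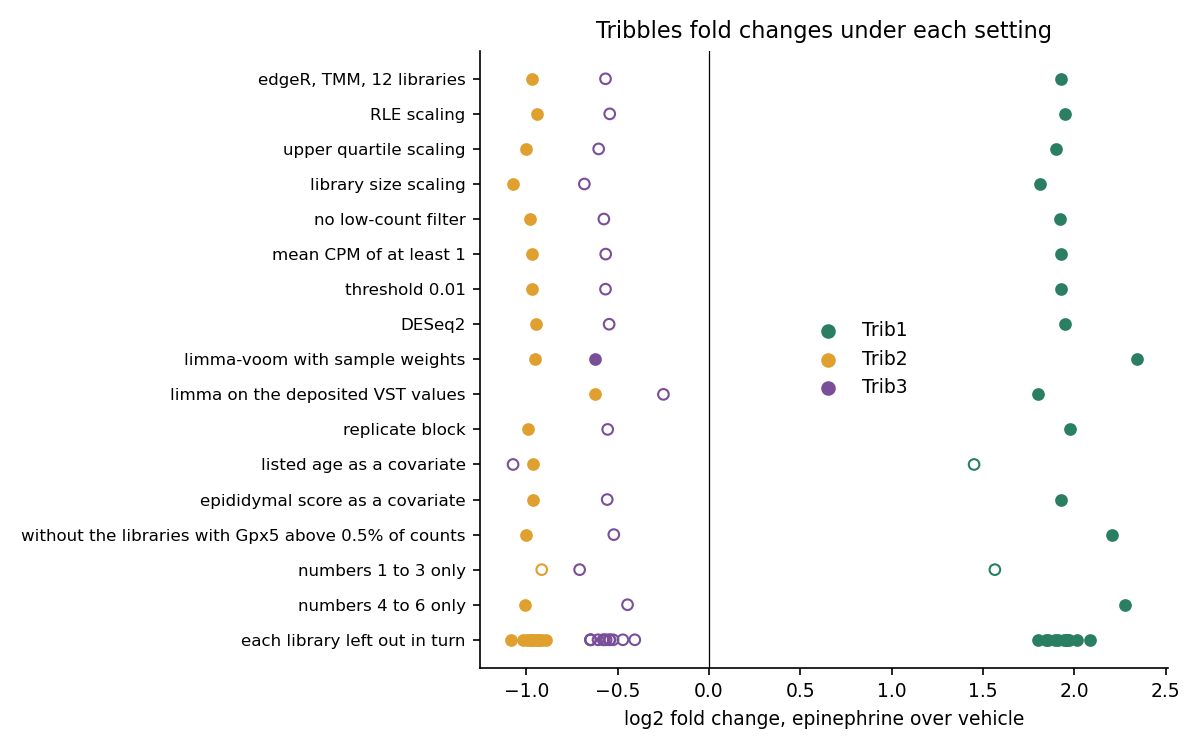
Log2 fold change of epinephrine over vehicle for each Tribbles gene (colour) under each setting, except that the points of the deposited VST values are differences of VST units, filled where the adjusted p passed that setting's threshold and open where it did not. In the settings that use counts Trib1 lies between 1.45 and 2.34, Trib2 between -1.08 and -0.89 and Trib3 between -1.07 and -0.41; the VST differences are 1.80, -0.62 and -0.25, and no point crosses 0.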

How the data were processed

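Per the labels' protocols, total RNA of 12 eWAT samples (TRIzol, RNeasy) went into SMARTER mRNA-Seq libraries. Build mm10 and the tools HISAT2, featureCounts, cutadapt, FastQC and DESeq2 are named in the submitters' processing notes; for versions, strand setting and annotation the sources used here give nothing. The authors deposited raw counts per gene (whole numbers) beside gene lengths, and a second table of variance-stabilized (VST) values, on a log2-type scale that is compressed at low counts such as those of Trib2 and Trib3, used only in an alternative.

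Groups and replicate numbers came from the titles. Counts were filtered with filterByExpr (minimum count 10, minimum total 15), scaled with TMM and tested with edgeR 4.0.16 (quasi-likelihood, robust) in R 4.3.3, with Benjamini-Hochberg adjustment over 16175 genes and a threshold of 0.05. RPKM used the deposited lengths, and log2 CPM a prior count of 1. The 1312 gene models without a symbol were kept. Alternatives used DESeq2 1.42.0 and limma 3.58.1. The test was tested on simulated data: of 98 genes changed 2-fold it recovered 46 (46.9%), and of 96 changed 4-fold 86 (89.6%), among 16020 genes with 7 false calls. Simulated libraries were drawn independently, without the differences in epididymal content or between number sets, so these rates need not hold for the real libraries.

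No 2 of the 66 library pairs were identical. The labels call them biological replicates. For each of the 6 replicate numbers, the 2 libraries had correlated deviations from their groups' means (0.262 to 0.799 across genes, over the limit of 0.1), so the numbers were treated as pairs in an alternative with the replicate block. Libraries 1 to 3 and 4 to 6 also differ in both groups, and 3 of 12 libraries correlated best with their own number. Between the groups, every correlation within numbers 1 to 3 or within 4 to 6 was at least 0.150, also over the limit. Every correlation from one of these sets to the other was at most -0.128. The limit therefore cannot tell matched numbers from this split. The members and lists were chosen with earlier results of these data known. Named genes were the members, genes of the lists, and for each member the 3 most similar profiles by each measure among genes averaging 1 or more log2 CPM.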

Additional observations from a re-analysis of the deposited data

How the results depend on the processing

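Trib1 was higher and Trib2 lower under all 27 alternatives run for each, and Trib3 was below vehicle in all 27. Across scalings, filters, tools, covariates and number subsets of the counts the log2 fold change ran from 1.45 to 2.34 for Trib1, from -1.07 to -0.92 for Trib2 and from -1.07 to -0.45 for Trib3. The deposited VST values, which are not on the same scale, differed by 1.80, -0.62 and -0.25. Leaving out each library in turn gave 1.80 to 2.08, -1.08 to -0.89 and -0.65 to -0.41. The Trib1 call ended with listed age as a covariate (1.45, edgeR adjusted p = 0.0523) and in numbers 1 to 3 (1.57, 0.248), where Trib2 was at -0.92 (0.234); edgeR called 0 genes there, with 1356 at an unadjusted p under 0.05. Trib3 passed with limma-voom (-0.63, limma adjusted p = 0.0368). With the replicate block, Trib1 was at 1.98, Trib2 at -0.99 and Trib3 at -0.55 (edgeR adjusted p = 0.00679, 0.00187 and 0.163), and no call of a member, a ratio or a named pathway gene changed.

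Within numbers 1 to 3 and numbers 4 to 6, the Trib1 to Trib3 difference of log2 ratios was 2.28 and 2.79 and the Trib1 to Trib2 difference 2.52 and 3.42 (exact permutation test, adjusted p = 0.15 in each, a design that cannot pass). Leaving out each library gave 2.22 to 2.78, 2.80 to 3.12 and, for Trib2 to Trib3, -0.60 to -0.29, which passed without epinephrine 1.

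Of all genes, 428 were higher and 579 lower. Higher and lower counts were 760 and 873 with DESeq2, 1026 and 1503 with limma-voom, 2339 and 1528 with listed age, 652 and 959 with the epididymal score, 786 and 1028 without the libraries with Gpx5 above 0.5% of reads, 228 and 185 at a threshold of 0.01, and 0 and 0 in numbers 1 to 3. The higher count was 696 in numbers 4 to 6, and the lower count 365 with the replicate block and 1448 with library size scaling, which moved the median of all genes to -0.11. Leaving out each library gave 276 to 797 lower genes, with 362, 314 and 373 when epinephrine 3, 4 or 5 was left out and 353, 364 and 276 when vehicle 1, 3 or 4 was. Of the 45 pathway genes, 8 were higher by edgeR over all 12 libraries. That count was 6 at a threshold of 0.01, 6 with listed age, 9 with DESeq2 and 10 with limma-voom. It was 10 without the libraries with Gpx5 above 0.5% of reads, and 0 in numbers 1 to 3. Lower pathway genes numbered 1 with upper quartile scaling, limma-voom and numbers 4 to 6, 2 with library size scaling and 7 with listed age. The cause of these shifts was not tested. Trib3 had the fewest reads of the 3 members, 81 to 332 per library; whether depth has a part in its missing the threshold was not tested.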
